A study of Mus musculus with 5 samples.

Results

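The sites described here are the NEUROD2 binding sites that lie in introns. They were chosen as the entries labelled intron in the authors' table of sites bound with all 3 NEUROD2 antibodies, a label that does not depend on the binding scores. Of the 2071 shared sites, 706 carried this label (34.1%, 95% Wilson interval 32.1% to 36.2%), beside 744 labelled intergenic, 522 labelled promoter, 98 labelled exon and 1 without a label. The ChIP-Seq samples came from the cerebral cortex of wild-type BALB/c mice at postnatal day 0, untreated, with the cortices of littermates pooled. The 3 NEUROD2 antibodies (ab168932, ab104430 and ab109406) gave 1 library each and are called antibodies 1, 2 and 3 by replicate number. The spread between them is the error given here. Reads from a GFP antibody were the control for peak calling, and the input library was left out. No mouse lacking NEUROD2 is among the samples. Separate mouse pools per antibody are not stated in the sources, so the spread may be technical, and pooled cortex holds many cell types, so a site cannot be assigned to one of them.

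NEUROD2 is a basic helix-loop-helix transcription factor of excitatory cortical neurons. Factors of this family bind DNA as dimers with E proteins at the E-box, a short element written CANNTG, and the inner bases and the bases beside it influence which dimer binds best. Introns are transcribed and then spliced out, and the introns of long neuronal genes hold many enhancers, which can act on the promoter of their host gene or on another gene.

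The label was compared with GENCODE M21, an annotation on GRCm38 (mm10), the build of the files. The midpoints of 626 sites (88.7%) lay in introns there, 73 lay within 1000 bp of an annotated transcription start site (TSS), 6 in exons and 1 outside genes. Among the sites named below, those of Tecr, Nfia, Nfic, Plxna4, Ptprs, Dlg4, Kif5c, Hlcs, Nfatc2, Nedd4l, Lypd6, Gm26801 and Mpp7 and the farthest of Gm20388 were within 1000 bp of a TSS by this annotation, and the highest site of Ephb1 and 1 site of Tenm4 were in exons. A host transcript was found for 701 sites, 672 of them (95.9%, interval 94.1% to 97.1%) in a protein-coding gene and 29 in a noncoding gene. These 701 sites lay in 540 host genes. Host genes need not be the genes on which a site acts, and the closest TSS of any gene belonged to the host at 438 of the 701 sites (62.5%, interval 58.8% to 66%).

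The reference sequences of the 5 highest scoring intronic sites come first because they show the range of E-box content, from a dense array to none. Each is the central 200 bp of the site on the plus strand of GRCm38, from RefSeq, with every CANNTG in capitals.
Tecr, chr8:83584882-83585081, intron 1: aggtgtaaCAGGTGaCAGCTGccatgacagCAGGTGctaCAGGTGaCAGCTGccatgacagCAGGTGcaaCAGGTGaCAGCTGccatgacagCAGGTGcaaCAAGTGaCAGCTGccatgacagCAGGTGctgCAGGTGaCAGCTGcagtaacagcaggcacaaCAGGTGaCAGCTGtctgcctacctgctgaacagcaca
Stim1, chr7:102369805-102370004, intron 2: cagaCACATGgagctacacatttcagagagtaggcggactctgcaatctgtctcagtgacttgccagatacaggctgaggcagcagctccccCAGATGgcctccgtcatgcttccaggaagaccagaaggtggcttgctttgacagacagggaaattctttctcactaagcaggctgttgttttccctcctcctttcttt
Erg, chr16:95390848-95391047, intron 4: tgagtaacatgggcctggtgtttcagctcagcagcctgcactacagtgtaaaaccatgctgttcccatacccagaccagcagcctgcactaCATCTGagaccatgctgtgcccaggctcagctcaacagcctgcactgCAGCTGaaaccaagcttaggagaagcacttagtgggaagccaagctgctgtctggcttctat
Macrod1, chr19:7148585-7148784, intron 3: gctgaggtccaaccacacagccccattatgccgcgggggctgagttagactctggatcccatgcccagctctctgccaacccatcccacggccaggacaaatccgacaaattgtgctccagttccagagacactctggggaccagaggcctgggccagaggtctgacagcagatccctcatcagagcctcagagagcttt
Nfasc, chr1:132591544-132591743, intron 25: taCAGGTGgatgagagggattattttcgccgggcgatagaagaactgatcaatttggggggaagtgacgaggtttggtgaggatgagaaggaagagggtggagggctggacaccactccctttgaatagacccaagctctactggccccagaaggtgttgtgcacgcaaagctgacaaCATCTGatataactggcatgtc

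The next windows belong to high scoring intronic sites of genes in 4 of the functional lists described below (transcription factors, calcium stores and channels, potassium and sodium channels, and axon guidance). Each is the highest of its list except Cacna2d2, which follows Stim1. They hold from 1 to 3 E-boxes each. CAGATG reads CATCTG on the other strand, and CAGCTG reads the same on both strands.
Myt1l, chr12:29663415-29663614, intron 3: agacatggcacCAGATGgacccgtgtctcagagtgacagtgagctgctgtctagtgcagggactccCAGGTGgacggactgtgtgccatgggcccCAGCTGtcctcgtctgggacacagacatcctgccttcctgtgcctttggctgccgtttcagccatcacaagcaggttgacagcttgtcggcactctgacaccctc
Cacna2d2, chr9:107456763-107456962, intron 2: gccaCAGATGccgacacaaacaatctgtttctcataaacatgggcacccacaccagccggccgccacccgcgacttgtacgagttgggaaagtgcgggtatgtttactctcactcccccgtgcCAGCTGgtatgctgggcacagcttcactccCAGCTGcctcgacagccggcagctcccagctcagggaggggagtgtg
Kcnn3, chr3:89540102-89540301, intron 1: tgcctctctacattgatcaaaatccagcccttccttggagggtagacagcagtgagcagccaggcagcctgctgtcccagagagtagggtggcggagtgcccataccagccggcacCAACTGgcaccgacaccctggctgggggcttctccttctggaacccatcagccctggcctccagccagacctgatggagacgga
Ephb1, chr9:102039284-102039483, intron 5: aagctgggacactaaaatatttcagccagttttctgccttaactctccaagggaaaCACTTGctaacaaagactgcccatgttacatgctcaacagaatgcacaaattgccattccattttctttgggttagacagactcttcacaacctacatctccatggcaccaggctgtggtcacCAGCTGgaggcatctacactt

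The last window was chosen because it has the most E-boxes among the sites not yet shown, other than 1 on a chromosome from which no sequence is printed here.
Camta1, chr4:151621488-151621687, intron 3: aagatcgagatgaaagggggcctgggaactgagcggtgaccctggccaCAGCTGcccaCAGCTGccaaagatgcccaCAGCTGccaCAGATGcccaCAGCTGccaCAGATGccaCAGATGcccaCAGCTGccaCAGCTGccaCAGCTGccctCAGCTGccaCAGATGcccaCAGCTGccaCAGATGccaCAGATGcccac

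The Tecr window held 16 E-boxes, of which 9 were CACCTG (written CAGGTG in this orientation), 6 were CAGCTG and 1 was CAAGTG. The 6 CAGCTG followed each other at 31 bp in all 5 intervals. The Camta1 window held 15 E-boxes, 9 CAGCTG and 6 CAGATG. The Stim1 window held 1 CAGATG and 1 CACATG, and the Erg window 1 CAGATG and 1 CAGCTG. The Stim1 site is 604 bp long, and the paper describes a cluster of 4 E-boxes in it. The central 200 bp of Stim1 therefore does not hold the whole cluster. The Macrod1 window held no E-box, although its site had rank 4 among the intronic sites.

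Scores are the values written by the peak caller MACS, minus 10 times the log10 of p for a peak against the GFP reads. They are not scaled between antibodies, and the read depth behind them is unknown from these files. The deposited score of a site equalled the sum over its peaks of all antibodies within 0.01 at 697 of the 706 intronic sites, so it ranks sites but is not the result of 1 test. For each antibody the highest peak in a site is given below as its peak score.

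The highest scoring intronic site lay in Tecr, which encodes an enzyme of very-long-chain fatty acid elongation. Its deposited score was 5011, rank 6 of all shared sites, and the peak scores were 1934 with antibody 1, 1841 with antibody 2 and 1237 with antibody 3 (mean 1670.3 ± 379, SD, n = 3). This site lay 9502 bp from the start of the host transcript named in the table, and 543 bp from another annotated TSS. Stim1, which encodes the calcium sensor of the endoplasmic reticulum that opens store-operated channels, was next with a deposited score of 4889.6. The peak scores at Stim1 were 1796, 2119 and 975 (mean 1629.9 ± 589.8, SD, n = 3), at a site in intron 2 that lay 102099 bp from the transcript start. In both genes all antibodies gave scores far above their medians over intronic sites, which were 184, 283 and 102.

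Erg, an ETS transcription factor of endothelial cells, had peak scores of 1699, 1825 and 867 (mean 1463 ± 521, SD, n = 3). Macrod1, which encodes an enzyme that removes ADP-ribose from proteins, had 1368, 1902 and 423 (mean 1231 ± 749, SD, n = 3). Nfasc, an adhesion molecule of the L1 family found at the axon initial segment, had 1644, 1592 and 739 (mean 1325 ± 508, SD, n = 3). The SDs between antibodies, from 379 to 749, include the unequal levels of the antibodies. Antibody by antibody, Stim1 exceeded Erg with all 3, whereas Tecr and Stim1, Erg and Macrod1, and Macrod1 and Nfasc each changed order between antibodies. At Macrod1 the deposited score, 4031, also counts another peak of antibody 3. Antibody 1 gave the highest peak score at Tecr and Nfasc, and antibody 2 at the other three. The remaining sites of the 10 with the highest scores lay in Gsg1l, an auxiliary subunit of AMPA receptors (deposited score 3686), Ccdc60 (3681), Hivep3, a zinc finger transcription factor (3563), Trak1, an adaptor between mitochondria and kinesin (3529), and Myt1l, a zinc finger factor of neurons (3516).

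**Figure D1:**
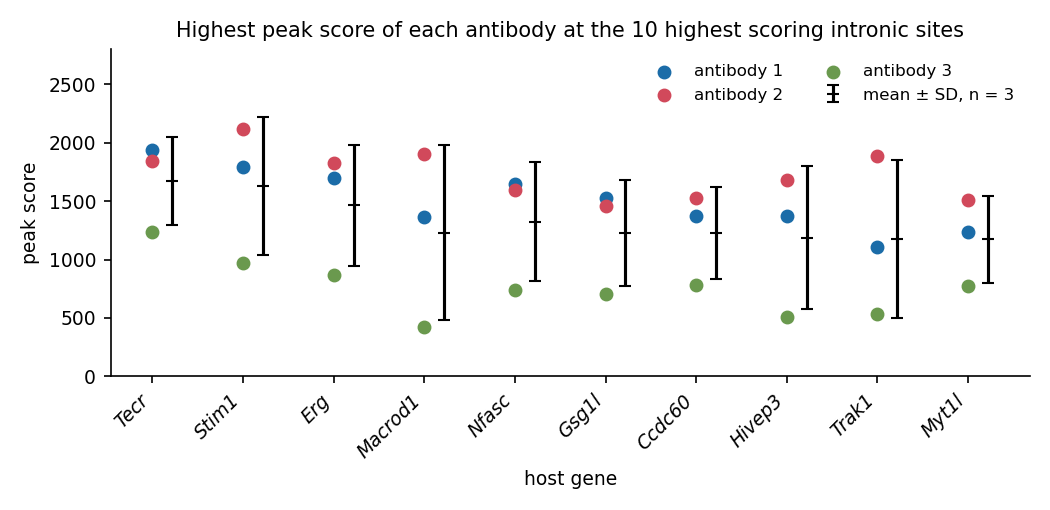
Highest peak score of each antibody (y axis, MACS score from 0) at the 10 highest scoring intronic sites, named by host gene. Points are the antibodies and bars the mean ± SD over the 3 antibodies, and antibody 3 lies lowest at each of the 10 sites.

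Over all intronic sites the deposited score had a median of 569.8 and ran from 164 to 5011. The middle of the range was narrow, from 392 at the 25th to 972 at the 75th percentile. The 3 lowest sites lay in Ncald, which encodes a neuronal calcium sensor (164), Ccbe1, a secreted protein of lymphatic growth (175), and Nfyb, a subunit of the CCAAT-binding factor NF-Y (182). At the Ncald site the peak scores were 61.1, 50.6 and 51.9, close to the lowest score that any antibody had at an intronic site, 50.1. Site length had a median of 484 bp, from 66 to 2027 bp.

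The 3 antibodies ranked the intronic sites alike but with unequal scores. Spearman's correlation across the 706 sites was 0.81 between antibodies 1 and 2, 0.73 between 1 and 3 and 0.73 between 2 and 3, as a description of 3 single libraries called against the same control. Antibody 2 gave the highest peak score at 570 sites (80.7%, interval 77.7% to 83.5%), antibody 1 at 127 (18%) and antibody 3 at 8 (1.13%), with 1 tie. This order depends on the scale, and with each score divided by the median of its antibody over all shared sites, antibody 2 led at 14.9% of intronic sites and antibody 1 at 49.3%. The median ratio of antibody 1 to antibody 2 was 0.713, with the middle 80% of sites between 0.411 and 1.18. The order 2, 1, 3 held at 502 sites, and the order 1, 2, 3 at 114. The midpoints of the highest peaks of all 3 antibodies lay a median of 57 bp apart at a site, and within 50 bp at 303 sites.

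The share of sites led by antibody 2 was lower in introns than at promoters, where it was 94.3% (interval 91.9% to 95.9%, 492 of 522 sites). This difference of -13.5 percentage points was larger than counting error (two-sided Fisher's exact test, adjusted p = 4.6e-12 over a family of 14 tests). With scores divided by the antibody median, the shares were 14.9% in introns and 45.2% at promoters, a difference of -30.3 points (Fisher's exact test, adjusted p = 4.0e-31). Antibody 1 led at 18% of intronic and 4.02% of promoter sites (Fisher's exact test, adjusted p = 1.7e-14). Sites were also rebuilt from antibodies 2 and 3 and classed by the reference annotation, giving 835 intronic and 908 promoter sites. In this other set the share where antibody 2 exceeded antibody 3 differed by -1.05 points (Fisher's exact test, adjusted p = 0.53). Between introns and intergenic sites, where antibody 2 led at 82.1% (interval 79.2% to 84.7%), the difference of -1.39 points was within counting error (Fisher's exact test, adjusted p = 0.62). These tests compare sites, which are not replicates of a condition. All 3 peak scores were 100 or more at 48.6% of intronic, 48.4% of intergenic and 39.8% of promoter sites, and the difference from promoters passed the test (8.74 points, Fisher's exact test, adjusted p = 0.0059).

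Single sites departed from the usual balance. The largest shares of antibody 1 in the sum of the 3 peak scores were at Lrrc6 (57.1%, peak scores 265, 148 and 51.9), Lypd6, a modulator of acetylcholine receptors (56.4%), and Ypel1 (56.3%). The largest shares of antibody 2 were at Gm26801 (73.6%), Trak1 (71.7%, peak scores 51.2, 354 and 88.9) and Etv6, an ETS repressor (71.0%). This second site of Trak1 lay in intron 1, and the strong site of the same gene in intron 2 had 53.4% of its sum from antibody 2. For antibody 3 the largest shares were at Hivep2 (46.2%), Celf2, a regulator of splicing (46.1%), and Grid1, a glutamate receptor of the delta class (43.5%), all 3 with deposited scores under the median. At 4 sites antibody 1 was at least 2 times antibody 2, and at 3 sites antibody 2 was at least 5 times antibody 1.

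E-boxes were concentrated at the centre of the intronic peaks with every antibody. In 200 bp around the midpoint of its own highest peak, antibody 1 had 2.83 E-boxes per site, antibody 2 had 2.75 and antibody 3 had 2.82, where windows 2000 bp beyond the site edges had 1.15. The ratio of centre to flanks was 2.43 ± 0.037 (SD, n = 3 antibodies), 2.48 ± 0.044 at intergenic sites and 1.47 ± 0.14 at promoter sites. All antibodies share the same sites and flanks here, and only the centre of the window moves between them. The SD therefore covers this shift of largely overlapping windows and not the error of independent replicates. With 3 antibodies no exact test of the ratio can reach 0.05, so it is given without a p. Windows of 200 bp every 10 kb along the introns of protein-coding genes held 1.1 E-boxes on average, near the flanks of the sites. The median GC content was 53.5% in the central windows and 46.5% in the flanks, and its part in the E-box ratio was not tested.

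**Figure D2:**
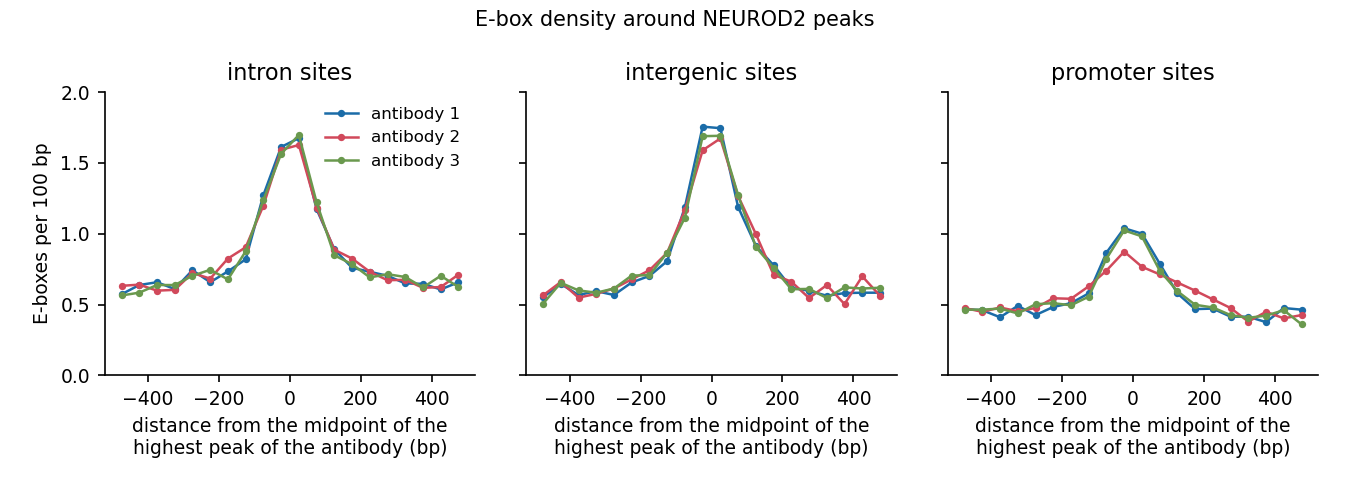
E-boxes per 100 bp (y axis) against distance in bp from the midpoint of the highest peak of each antibody (x axis), in bins of 50 bp, for intronic, intergenic and promoter sites. In introns the lines of the 3 antibodies reached between 1.63 and 1.70 in the bin just right of the midpoint and at both edges of the plot they lay between 0.564 and 0.711.

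At least 1 E-box lay in the central 200 bp of 655 intronic sites (92.8%, interval 90.6% to 94.5%), and in 65.5% of their flanking windows (interval 63% to 67.9%). The share was higher than the 75.7% of promoter sites (interval 71.8% to 79.2%, difference 17.1 points, Fisher's exact test, adjusted p = 2.2e-16). The size of this difference depended on the window, with 29.1 points in 100 bp and 5.58 points in 400 bp. Promoter sites were also longer, with 78.5% over the median length of all shared sites (528 bp), against 41.1% of intronic sites. The central 200 bp thus covers less of a promoter site. Against the 95.2% of intergenic sites (interval 93.4% to 96.5%) the difference of -2.39 points did not pass (Fisher's exact test, adjusted p = 0.12). It passed in the exact test when sites with over 50% repeat in the window were left out (-2.78 points, adjusted p = 0.046) and among sites where each antibody scored 100 or more (-5.15 points, adjusted p = 0.013). Sites were also rebuilt from 2 antibodies and classed by the reference annotation. There the difference from intergenic sites turned in direction without antibody 2 (0.0225 points) and without antibody 3 (0.41 points). Only 7 intronic sites had no E-box anywhere between their edges, and 51 had none in the central window.

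Among the 10 E-box forms, which count a sequence and its reverse complement as 1, CAGATG and CAGCTG stood out. CAGATG occurred in 447 intronic sites (63.3%, interval 59.7% to 66.8%), in 15.2% of their flanks and in 15.1% of the windows along introns. CAGCTG occurred in 285 sites (40.4%, interval 36.8% to 44.0%), in 10.8% of the flanks and in 7.83% of the windows along introns. Per window, CAGATG was 6.24 times and CAGCTG 4.90 times as frequent as in the flanks. Next came CATATG with 1.96 times, and CAATTG with 0.452 times was the lowest. At least 1 of CAGATG and CAGCTG was present in 576 sites (81.6%, interval 78.6% to 84.3%), both in 156, CAGATG alone in 291 and CAGCTG alone in 129.

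CAGATG set introns apart from promoters, where 28.5% of sites held it (interval 24.8% to 32.6%), a difference of 34.8 points (Fisher's exact test, adjusted p = 4.2e-33). The share with CAGCTG, 41.0% at promoters, did not differ beyond counting error (difference -0.628 points, Fisher's exact test, adjusted p = 0.93). Intergenic sites held CAGATG in 65.2% and CAGCTG in 42.9%, and neither share differed from the intronic one beyond counting error (adjusted p = 0.62 and adjusted p = 0.56 by Fisher's exact test). Promoter windows had a median GC content of 68%, well above the intronic 53.5%.

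**Figure D3:**
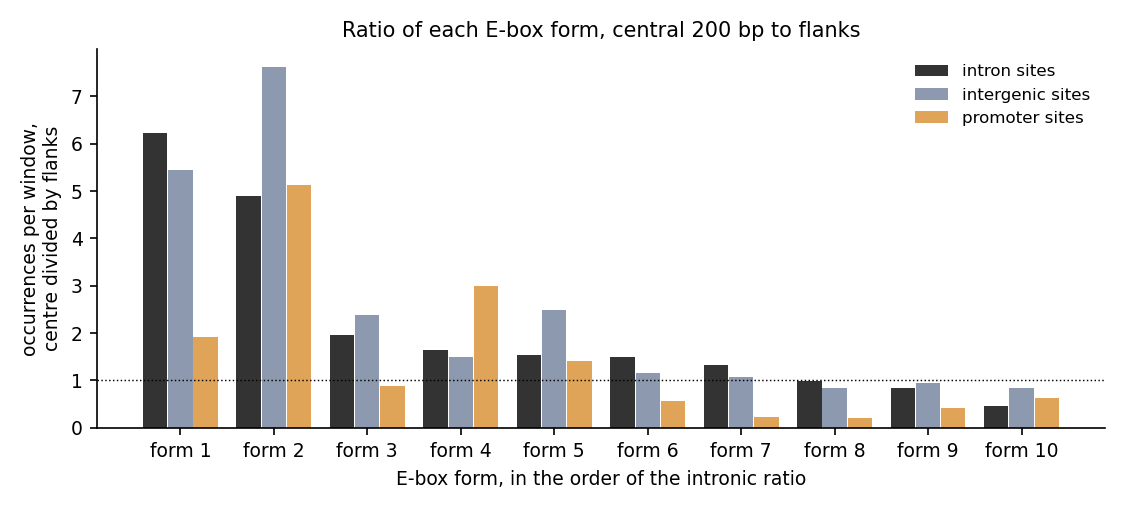
Occurrences of each E-box form per central 200 bp window divided by those per flanking window (y axis, bars from 0, dotted line at a ratio of 1) at intronic, intergenic and promoter sites. On the x axis form 1 is CAGATG, form 2 is CAGCTG, form 3 is CATATG, form 4 is CACGTG, form 5 is CACCTG, form 6 is CAACTG, form 7 is CACATG, form 8 is CAAATG, form 9 is CAAGTG and form 10 is CAATTG, and forms 1 and 2 have the highest intronic ratios, 6.24 and 4.90. At intergenic sites form 2 exceeded form 1 (7.62 and 5.46).

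The bases beside CAGATG were uneven in the intronic sites. Read with CAGATG in the forward direction, the base before it was A in 40.6% and T in 4.83% of 725 occurrences, where 28.5% and 26.0% of the 235 occurrences in flanks had these bases. The base after it was G in 61.7%, against 30.6% in flanks, and A in 5.38%, against 23.4%. Beside CAGCTG, T was the least frequent base before the element as well (7.73% of 414 occurrences, against 19.4% in flanks). Among the windows printed above that hold CAGATG, it was followed by G in Stim1 and Myt1l, by C in Cacna2d2 and Camta1 and by T in Erg and Nfasc.

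More E-boxes did not go with a higher score. The median deposited score was 766 for the 51 sites without an E-box in the central window, 519 with 1, 580 with 2, 546 with 3, 537 with 4 and 632 with 5 or more. When the sites were split by score into 3 groups of 235 or 236, the share with an E-box was 96.2% in the lowest, 92.3% in the middle and 89.8% in the highest, and the share with CAGATG was 64.7%, 62.1% and 63.1%. The sites of the highest group were also longer (median 620 bp, against 391 bp in the lowest), so their central 200 bp covers less of them. The sites without an E-box had a median GC content of 56%.

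Dense E-box arrays such as that of Tecr were few. In the central 200 bp, 20 sites had 8 or more E-boxes and 12 sites had 10 or more. Ccdc112 had the most (20, of which 15 were CAGATG), with a low deposited score of 285, followed by Tecr with 16 and Camta1, a calmodulin-binding transcription activator, with 15 and a score of 493. Neighbouring sites in Sh3rf3 held 10 and 12, mostly CAGCTG (8 and 10). The deposited scores of the 20 sites ran from 202 to 5011, and how reads mapped to repeated sequence was not tested. Over all intronic centres, 76.6% of sites had 2 or more E-boxes (interval 73.4% to 79.6%) and 24.4% had 2 or more CAGATG.

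Other short elements were searched on both strands in the same windows, each as a description and not as a binding site. TTGGCA, a core element of nuclear factor I sites, was in 19.3% of the intronic centres (interval 16.5% to 22.3%), in 10.2% of flanks and in 9.81% of the windows along introns. Counting only occurrences that share no base with an E-box, the shares were 15.9% in centres and 8.99% in flanks. TAATTA, a homeobox core, was in 2.41% of centres and 4.46% of flanks, and ACAATG, a SOX core, in 7.22% and 10.1%. Both are made mostly of A and T, and the flanks are poorer in G and C than the centres.

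Intronic sites lay in long genes. The 672 sites with a protein-coding host had hosts with a median length of 177981 bp, where the 20504 protein-coding genes with introns had a median of 19503.5 bp. Long genes hold most of the intronic sequence, so the sites were set against intronic bases. Hosts over 100 kb held 465 of the 672 sites (69.2%, interval 65.6% to 72.6%), and such genes, 12.1% of all, held 62.0% of intronic bases. At a threshold of 50 kb the values were 83.2% of sites (interval 80.2% to 85.8%) and 78.4% of bases, and at 200 kb 46.3% of sites (interval 42.5% to 50.1%) and 42.4% of bases. At each of the 3 thresholds the share of bases lay below the interval of the share of sites, but at 200 kb only just (42.4% against 42.5%). The bases include those within 1000 bp of a TSS, where sites are labelled promoter.

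Per Mb of intron there were 0.537 sites in genes up to 50 kb, 0.591 from 50 to 100 kb, 0.811 from 100 to 200 kb, 0.879 from 200 to 500 kb and 0.620 over 500 kb. The share of genes with a site rose through these classes from 0.664% (103 of 15518) to 30.4% (70 of 230, interval 24.8% to 36.7%). Over all, 514 genes or 2.51% hosted an intronic site, and 324 of the 2484 genes over 100 kb or 13.0%. The median site score differed little between length classes, from 518 in genes up to 50 kb to 622 in those from 50 to 100 kb.

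**Figure D4:**
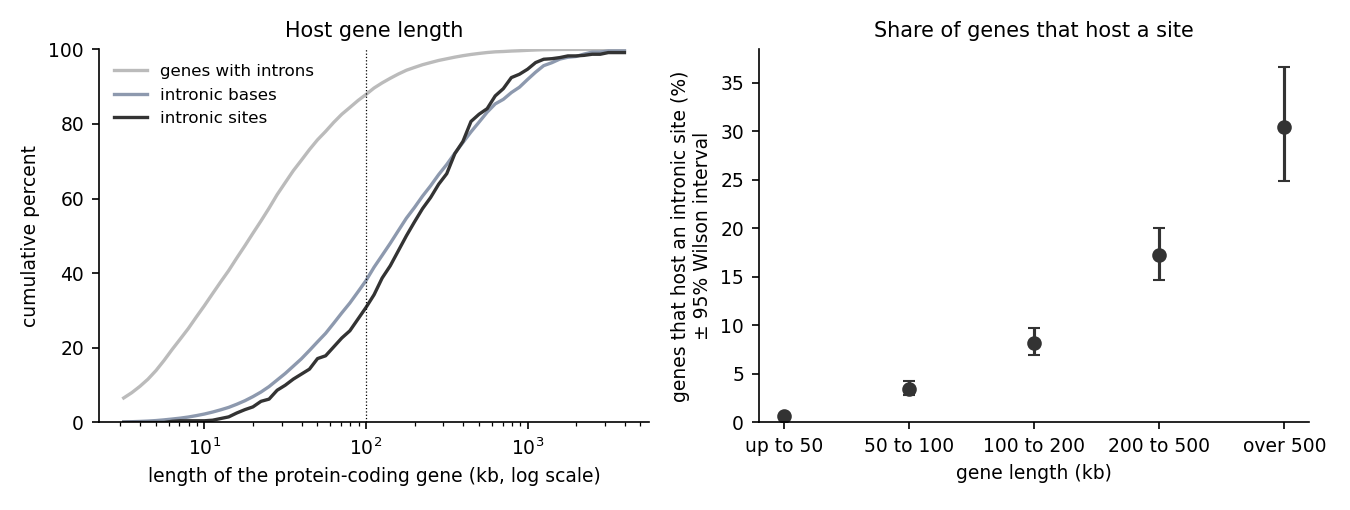
Left, cumulative percent of genes, intronic bases and intronic sites against the length of the protein-coding gene (kb, log axis, dotted line at 100 kb). Right, percent of genes in each length class that host an intronic site, with 95% Wilson intervals, rising from 0.664% to 30.4%.

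Within their hosts the sites were spread over the whole transcript. The distance to the start of the host transcript had a median of 75727 bp, with 24369.5 bp at the 25th and 198244 bp at the 75th percentile. It was 1000 to 5000 bp at 49 of the 672 sites, 5000 to 20000 bp at 96, 20000 to 50000 bp at 129, 50000 to 100000 bp at 120, 100000 to 500000 bp at 234 and more at 44. With the transcript cut into 4 equal stretches from its start, 22.9%, 27.4%, 26.3% and 23.4% of sites were found. First introns held 205 sites (30.5%, interval 27.1% to 34.1%) and 27.3% of intronic bases, so the bases lay within the interval of the sites. Last introns held 37 of 659 sites in transcripts with at least 2 introns (5.61%). The closest TSS of any gene was much nearer, at a median of 11780 bp.

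The sites nearest to the start of their host transcript lay in Nfatc2, a calcium-regulated transcription factor, at 1027 bp (peak scores 206, 185 and 50.2), and Nedd4l, a ubiquitin ligase, at 1089 bp (192, 294 and 183). The farthest sites by the table lay in Gm20388, at 2798920 and 2841111 bp, in an intron of 4384418 bp. Gm20388 is annotated over 4434882 bp and overlaps Gse1, and introns over 1 Mb occurred at 10 sites in all, 6 in Gm20388, 3 in Fgfr2 and 1 in Gm37240. Leaving these out, the farthest lay in Cntnap2, an adhesion molecule of the neurexin superfamily, at 1644630 and 2171646 bp. The second of these was in intron 21, with peak scores of 324, 473 and 183.

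Sites were also split by their position in the host. The share with an E-box was 91.9% in first introns (interval 87.6% to 94.8%) and 93.3% in later ones (interval 90.7% to 95.2%), and the median deposited scores were 554 and 576. Sites under 20 kb from the host TSS held an E-box in 87.9% (interval 81.9% to 92.1%) and those over 100 kb away in 94.4% (interval 91.1% to 96.5%). The nearer sites held CAGATG in 55.4% (interval 47.6% to 63%) and the farther in 65.0% (interval 59.3% to 70.3%). Their median peak scores were 175, 273 and 93.9 near the start and 201, 298 and 110 far from it. These groups of sites were described and not tested.

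A total of 102 host genes held 2 or more intronic sites, 64 of them exactly 2 and 38 of them 3 or more. Together they held 263 of the 701 sites (37.5%, interval 34.0% to 41.2%). These hosts were longer, with a median of 287128 bp against 118189.5 bp for the 438 hosts with 1 site. Neighbouring sites in a host were a median of 37431 bp apart, 86 of the 161 neighbouring pairs shared an intron and 33 pairs were within 5000 bp. When sites within 5000 bp were counted once, 84 genes had 2 or more. The count depended on the set of sites. The 1428 intronic sites shared by antibodies 1 and 2, built without antibody 3, gave 245 genes with 2 or more. The 343 sites where each antibody scored 100 or more gave 32.

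The most sites were found in Auts2, a gene of brain development, Sh3rf3, a RING finger ubiquitin ligase, and Gm20388, with 6 each. Auts2 spans 1106012 bp (chr5:131437333-132543344, minus strand), and its deposited scores were 2389, 1864, 1634, 1254, 469 and 184. Of these, 4 sites lay in intron 4, and the highest, at chr5:131793992-131795189, had no E-box in its central window. The 6 sites of Sh3rf3, in 325558 bp, had scores from 498 to 1861, and the 2 with E-box arrays were 377 bp apart. The sites of Gm20388 lay in 1 intron, and the 2 at chr8:120557245-120558080 and chr8:120558170-120558678 are inside the span of Gse1.

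Gse1 itself, Tenm4, a teneurin of the neuronal surface, and Ttc28 had 5 sites each. The Gse1 scores ran from 586 to 3198, with 4 of the 5 sites in intron 1. The Tenm4 sites were in 5 different introns with scores from 364 to 1542, and the Ttc28 sites in 3 introns with scores from 373 to 2416. Strong and weak sites thus stood in the same gene. Hivep3, Prex1, a Rac exchange factor, Slc39a11, a zinc transporter, Grid1, Mpp7, a scaffold of cell polarity, and Efcab6 had 4 each. Prex1 had 2.71 sites per 100 kb and Grid1 0.524.

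The sites of Mpp7 stood apart. All 4 lay within 975 bp, 3 of them were 66 to 92 bp long, none had an E-box in its central window, and repeats covered 20% to 100% of these windows. All 4 were within 1000 bp of an annotated TSS of another transcript. At these 3 narrow sites antibody 1 led and antibody 3 exceeded antibody 2 (457, 353 and 402 at the strongest). Narrow sites under 100 bp numbered 5 over all intronic sites, the other 2 being in Nek10 and Lingo2, each between stronger sites, 252 and 254 bp away in Nek10 and 248 and 232 bp away in Lingo2.

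**Figure D5:**
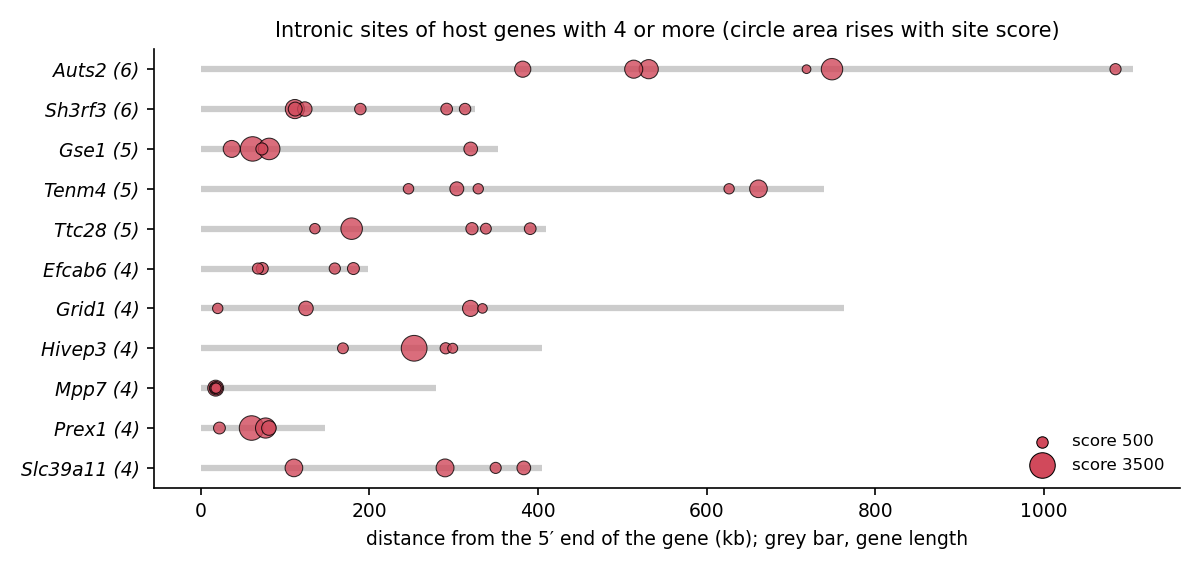
Intronic sites (circles) along host genes with 4 or more sites, leaving out Gm20388, by distance from the 5′ end of the gene (kb, x axis). Grey bars are gene lengths, the number of sites stands beside each gene, and circle area rises with the deposited score, so that the 4 sites of Mpp7 appear as 1 cluster.

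Hosts were also searched for a shared site at their promoter. Of 514 protein-coding hosts, 24 (4.67%, interval 3.16% to 6.85%) had a site labelled promoter within 1000 bp of one of their TSSs, beside 2.43% of all genes with introns. Among genes over 100 kb the values were 20 of 324 hosts (6.17%, interval 4.03% to 9.34%) and 3.95% of all. Counting shared sites of any label within 1000 bp of a TSS gave 79 of 514 hosts, a count that includes the intronic sites by which the genes became hosts and cannot be read beside these shares. In 15 of the 24 genes with a site labelled promoter, the highest intronic site had a higher deposited score than the highest promoter site, and some of these genes, such as Prex1 with 4, had several intronic sites to take the highest from. Prex1 had 3221 at its highest intronic site and 999 at the promoter, Ephb1, a receptor of ephrins, 2642 and 232, and Atp2b2, a calcium pump of the plasma membrane, 2106 and 615. Hlcs, which attaches biotin to enzymes, had 619 and 4595.

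Host genes were then counted in lists of genes by function, which were set down with results of these data already known. Of the 321 genes with introns in 9 lists of neuronal function, 62 hosted an intronic site (19.3%), where 2.51% of all genes and 13.0% of genes over 100 kb did. The 62 became 95 for sites built without antibody 3 and 36 for sites where each antibody scored 100 or more. Against 706 intronic sites, these settings had 1428 and 343. These counts, and those of single lists below, therefore cannot be read apart from the number of sites. The share of all genes with a site is not given for these settings. The lists are rich in long genes, so the share among list members over 100 kb is also given, beside the 13.0%. The share of genes with a site rose further with length, from 8.2% at 100 to 200 kb to 30.4% over 500 kb. The value of 13.0% is therefore not matched for length within the genes over 100 kb. Of 40 metabolic housekeeping genes none hosted a site, which allows a share of up to 7.5% for a count of 0, and only 2 of them were over 100 kb. Of 61 marker genes of other cortical cell types, 1 hosted a site, which was Erg among the endothelial markers. Only 14 of these markers were over 100 kb, and Erg was the 1 host among them, so the count is not a contrast with the neuronal lists, whose genes are longer.

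Calcium store and channel genes had 10 hosts among 46 genes, 9 of them among the 26 over 100 kb (34.6%). Stim1 was highest, followed by Cacna2d2, an auxiliary subunit of calcium channels, with a site in intron 2 (deposited score 3171, peak scores 1079, 1482 and 610). Atp2b2 had 2106 and Camk2d, a calcium/calmodulin kinase subunit, 1455. Camk2a, the kinase subunit of excitatory synapses, had a weak site 7165 bp from its transcript start with peak scores of 102, 143 and 58.5.

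Cortical transcription factor genes had 8 hosts among 45, with 19 sites in all and 7 hosts among 25 genes over 100 kb (28%). Without antibody 3 there were 13 hosts. After Myt1l the highest were Nfix (2719), Nfia (2404) and Auts2, where both sites of Nfia lay near a TSS in the reference annotation, 11 and 402 bp away. Nfic (1260) and Nfib (342) also held sites, so each of the 4 nuclear factor I genes was a host, an observation made after the values were seen. The highest sites of Nfix and Nfia had no E-box in the central window, and that of Nfib had 5. Cux1, a homeobox factor of upper cortical layers, had 1 site with peak scores of 363, 260 and 84.2, led by antibody 1, and its relative Cux2 had 3 sites with scores from 773 to 981.

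Axon guidance genes had 9 hosts among 46, with 8 of 32 over 100 kb (25%), and 5 hosts where each antibody scored 100 or more. The ephrin receptors Ephb1 (2642) and Ephb2 (1349), Sema5a, a semaphorin (2102), and Plxna4, a plexin (1197), were highest. The Sema5a window held 3 CAGATG and no CAGCTG, and the Plxna4 window no E-box. Cytoskeleton and dendrite growth genes had 10 hosts among 48 and 17 sites, all in genes over 100 kb (10 of 42, 23.8%). The count of 10 became 21 without antibody 3 and 5 where each antibody scored 100 or more. Their highest sites lay in Dock1, a Rac exchange factor (1098), Dclk1, a microtubule-binding kinase (969), Nav2 (755) and Kif5c, a kinesin heavy chain (619).

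Glutamate receptor genes had 5 hosts among 25, with Grm7 (1424), Grid1 (1245), Grik4 (453) and Grin2a (380) among them. All 5 were among the 18 genes over 100 kb (27.8%), and 3 hosts were left where each antibody scored 100 or more. Neurexin and partner genes had 6 hosts among 25, with 4 of 13 over 100 kb (30.8%). Lrrtm4, a postsynaptic ligand of neurexins, had 1644, Ptprs, a receptor phosphatase, 1164, and Cntnap2 979. The site of Nrxn3 lay in intron 9, 654352 bp from the transcript start, with peak scores of 119, 284 and 121.

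Postsynaptic scaffold genes had 6 hosts among 23, with 4 of 14 over 100 kb (28.6%), but only 1 host where each antibody scored 100 or more. Dlgap2 was highest (1805), followed by Magi1 (600), Dlg4, which encodes PSD-95 (546), and Dlgap3 (383). Grip1, another scaffold gene, had no intronic site. Potassium and sodium channel genes had 5 hosts among 34, all in the 23 genes over 100 kb (21.7%) and all of them potassium channel genes or a subunit partner, with Kcnn3, a calcium-activated potassium channel, highest (3167), then Kcnq3 (2020), Kcnj6 (703) and Kcnip1 (409). Without antibody 3 this list had 9 hosts, and 3 where each antibody scored 100 or more. Cadherin genes had 3 hosts among 29, Cdh13 (1183), Fat3 (693) and Pcdh15 (417), with 3 of 22 over 100 kb (13.6%). This count became 6 without antibody 3 and 1 where each antibody scored 100 or more. In the 8 other neuronal lists the share among genes over 100 kb ran from 21.7% to 34.6%. These counts describe the lists, carry no test and are not matched for length above 100 kb.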

How the data were processed

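Peaks were called by the authors from ChIP-Seq reads mapped with Bowtie to mm10 (both named in the submitters' notes), using MACS with the GFP reads as control and separately for each antibody. The deposited score of each peak is the MACS score, minus 10 times the log10 of p, and the deposited table of shared sites gives a summed score, a gene symbol, a transcript and a location. No read counts or depths were used, so the precision behind a score is unknown.

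Each site was joined to the peaks of the 3 antibodies that overlap it by at least 1 bp, and to its transcript in GENCODE M21. E-boxes were counted in the central 200 bp, in flanks 2000 bp beyond the site edges, and in 90639 windows placed every 10 kb along introns. Shares carry 95% Wilson intervals and were compared by two-sided Fisher's exact tests, with Benjamini-Hochberg adjustment over 14 tests. The antibody with the highest score was also found after dividing by each antibody's median. Intervals and tests cover counting error over sites only, and neighbouring sites share a locus. The tests were checked on simulated data. Python 3.11.15, SciPy 1.17.1, NumPy 2.4.6, pandas 2.3.3 and matplotlib 3.10.9 were used.

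Named were the 10 highest and 3 lowest scoring sites, the hosts with most sites (6 and ties), the 3 sites with the largest share from each antibody, the 3 with most E-boxes, the 2 nearest to and 2 farthest from the start of their transcript, up to 4 hosts per gene list, and Stim1, Cux1, Grip1, Nrxn3 and Camk2a. Other names were chosen after their values were seen. The members and the lists were chosen with earlier results of these data known. Some hosts that this rule names are not reported here.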

Additional observations from a re-analysis of the deposited data

How the results depend on the processing

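The higher E-box and CAGATG shares of introns over promoters kept their direction and passed the test under each alternative run. The E-box difference ran from 5.58 points in 400 bp windows to 29.1 points in 100 bp windows. Other comparisons moved, and the cause was not tested. Sites built from 2 antibodies took their class from the reference annotation. Against intergenic sites, the E-box difference was -2.78 points without windows over 50% repeat, -5.15 where each antibody scored 100 or more, and -1.11 to 0.41 leaving out an antibody. The share led by antibody 2 differed by -0.0739 to 0.429 points from intergenic and by -12.8 to -1.05 points from promoter sites when antibody 1 or 3 was left out. The CAGATG difference from intergenic sites was 0.107 points by the reference class and -1.57 to 1.54 leaving out an antibody, and that of CAGCTG -2.2 to 1.21. The CAGCTG difference from promoters was 4.2 points in 100 bp windows, 0.14 at scores of 100 or more, 0.00344 by the reference class and -5.71 to 2.41 leaving out an antibody. The ratio of E-boxes in centre to flanks was 2.79 in 100 bp and 1.86 in 400 bp windows, 2.33 at scores of 100 or more and 2.36 to 2.51 leaving out an antibody. First introns held 26.8% of sites at scores of 100 or more. Hosts over 100 kb held 72.8% by the reference class, those over 50 kb 83.2% and those over 200 kb 46.3%. Genes with 2 or more sites numbered 32 at scores of 100 or more and 113 to 245 leaving out an antibody, and genes of the neuronal lists with a site 36 and 58 to 95. The intronic sites behind these counts numbered 343 and 742 to 1428, against 706. No paired analysis was possible because the antibodies gave 1 library each and the control groups share fewer than 2 replicate numbers with them.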
